A study of Mus musculus with 6 samples.

Results

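Lymphatic vessels drain fluid, proteins and immune cells from the lung, and their inner lining is made of lymphatic endothelial cells. The transcription factor PROX1 gives these cells their identity. The growth factor VEGF-C drives their growth through the receptor VEGFR-3, encoded by Flt4, with neuropilin-2 as co-receptor. The genes described here are 7 lymphatic vessel genes, Prox1, Lyve1, Flt4, Mmrn1, Reln, Vegfc and Nrp2, taken by their symbols from the table of mRNA counts. All 7 of the 7 listed genes were found among its 17973 mRNAs, and all 7 passed the filter on low counts.

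The 6 RNA libraries came from whole lung of C57BL/6 mice, 3 with silicosis and 3 controls. Silicosis, a scarring disease caused by crystalline silica dust, was induced by a single dose of silica to the trachea, 8 mg suspended in 40 µL saline. The series text describes the comparison animals as given sterile saline. Lungs were frozen after 90 days. The silicosis libraries are called N129, N136 and N138 and the control libraries C7, C8 and C9, as in the labels, which give no age or sex and do not say that each library is a separate mouse. The p-values therefore measure the spread between these libraries, which may be technical.

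Total mRNA counts ranged from 33698920 to 44000748, and the 7 genes had between 357 and 10883 counts each in every library. Levels are normalised CPM, a gene's count scaled to a fixed library total. A fold change is silicosis over control, and its standard error is called SE. The test was the edgeR quasi-likelihood F test over 15808 mRNAs, and a gene passed at a Benjamini-Hochberg adjusted p under 0.05. By this test 31.8% of all tested mRNAs passed, 15.3% higher and 16.5% lower in silicosis. The median log2 fold change of all tested mRNAs was 0.02.

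Of the 7 lymphatic vessel genes, 2 were higher in silicosis (Prox1 and Reln), 2 were lower (Lyve1 and Flt4) and 3 did not pass (Mmrn1, Nrp2 and Vegfc). Among so few genes, 4 that passed is not set against the 31.8% of all tested mRNAs as a result. The levels of 4 of the 7 genes did not overlap between the groups, as was true of 47.7% of all tested mRNAs. The median log2 fold change of the 7 was 0.14, with a range of -1.03 to 0.68. The gene that specifies lymphatic identity and the receptor that carries the main growth signal thus moved in opposite directions. Both are also expressed by cells other than lymphatic endothelium, which RNA from whole lung does not separate.

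On GRCm38, by GENCODE M21, Prox1 spans chr1:190118035-190170714 and Reln chr5:21884454-22344702, both on the minus strand, Flt4 spans chr11:49609263-49652739 on the plus strand and Lyve1 chr7:110850607-110863239 on the minus strand. For 3 of these genes that moved, the stretch around the start of transcription annotated by RefSeq is shown for Prox1 and Reln, which rose together, and for Flt4, which fell. Each window runs from 250 bases before the start to 50 bases after it, 5′ to 3′ on the gene's strand, from RefSeq on GRCm38.p6, an earlier build than the GRCm39 named by the submitters. Windows were found for 6 of the 7 genes, with 2 for Prox1, of which the one further upstream is printed. Capitals mark matches, on either strand, to the motifs searched, which were the ETS core CCGGAA, the SOX motif ACAAAG, the NR2F site AGGTCA, the GATA motif AGATAA, the FOX motif TAAACA, the TATA box TATAAA and the NF-kB consensus. The windows lie at chr1:190170778-190171077 (minus strand) for Prox1, chr5:22344656-22344955 (minus strand) for Reln and chr11:49609429-49609728 (plus strand) for Flt4.
Prox1: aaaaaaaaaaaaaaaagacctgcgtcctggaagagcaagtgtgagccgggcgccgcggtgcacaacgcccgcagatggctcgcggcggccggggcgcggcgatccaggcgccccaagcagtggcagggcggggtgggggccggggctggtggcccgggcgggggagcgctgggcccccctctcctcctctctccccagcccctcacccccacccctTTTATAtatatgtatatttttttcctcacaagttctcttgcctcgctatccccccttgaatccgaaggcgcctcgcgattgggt
Reln: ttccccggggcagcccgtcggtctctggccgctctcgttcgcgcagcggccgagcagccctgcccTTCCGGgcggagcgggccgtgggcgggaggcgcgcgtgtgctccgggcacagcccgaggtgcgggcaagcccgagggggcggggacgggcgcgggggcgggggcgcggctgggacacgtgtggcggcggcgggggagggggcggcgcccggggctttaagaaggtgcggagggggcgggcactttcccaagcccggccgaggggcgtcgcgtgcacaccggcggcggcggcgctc
Flt4: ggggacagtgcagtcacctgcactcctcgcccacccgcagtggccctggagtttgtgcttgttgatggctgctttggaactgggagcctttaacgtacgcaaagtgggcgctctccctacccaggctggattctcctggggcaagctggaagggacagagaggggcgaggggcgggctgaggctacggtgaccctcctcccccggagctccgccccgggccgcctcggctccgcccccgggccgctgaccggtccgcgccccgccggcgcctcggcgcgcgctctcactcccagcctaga

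The Prox1 window held 1 TATA box match on the opposite strand, beginning 34 bases before the RefSeq start, and 9.27% of 17503 promoter windows held one, a set made of the genes in the mRNA table outside chromosome 18. The Reln window held 1 ETS core match, as did 21.6% of those windows. None of the motifs was found in the window of Flt4, Mmrn1, Vegfc or Nrp2. The other Prox1 window held 1 SOX match and 1 FOX match, found in 15.3% and 9.80% of windows, and no matches overlapped. The windows differed in CG dinucleotides. Reln had 47, a number exceeded by 1.80% of windows, Nrp2 had 37, Vegfc 35, Flt4 26, the printed Prox1 window 25 and Mmrn1 3, against a median of 17 over the same 17503 windows. A match is a description of the letters only. The printed Prox1 window lies wholly upstream of the Prox1 span given above, so its RefSeq start differs from that of GENCODE M21. The last bases of this Prox1 window were not found in the GENCODE transcripts as those of Reln and Flt4 were. The Flt4 window lies wholly inside the Flt4 span, which begins at 49609263. The Mmrn1 window, chr6:60944067-60944366, likewise lies inside the Mmrn1 span, which begins at 60924976. The RefSeq starts of both thus lie downstream of the start of the GENCODE span.

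Prox1 was higher in each silicosis library than in any control library. The transcription factor had 14.7, 16.4 and 14.9 CPM in N129, N136 and N138, against 8.87, 8.998 and 10.8 CPM in C7, C8 and C9. In raw reads these were 563, 717 and 534 counts in silicosis and 357, 376 and 412 counts in control lungs. The means were 15.3 ± 0.971 CPM in silicosis and 9.54 ± 1.05 CPM in control (SD, n = 3 each). The log2 fold change was 0.68 (SE 0.14, edgeR adjusted p = 0.00539), a 1.61-fold rise with a 95% interval of 1.30 to 1.99. The value lay between 0.62 and 0.78 when any 1 library was left out, and the call held each time.

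Reln, which encodes the secreted glycoprotein reelin, known from brain development and made by lymphatic endothelium of collecting vessels, was also higher in every silicosis library. It had 37.0, 42.6 and 35.9 CPM in N129, N136 and N138, against 27.2, 26.5 and 30.01 CPM in C7, C8 and C9. The groups did not overlap, but the gap between the lowest silicosis and the highest control library was narrow. Its log2 fold change was 0.47 (SE 0.11, edgeR adjusted p = 0.0115), a 1.38-fold rise with a 95% interval of 1.16 to 1.64. Without C8 the value was 0.43 and the call ended (edgeR adjusted p = 0.0542). Over the other leave-one-out fits the adjusted p lay between 0.0112 and 0.0493.

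Lyve1 showed the steepest change of the 7. It encodes a hyaluronan receptor of lymphatic capillaries that some tissue macrophages also carry. It had 119, 106 and 97.7 CPM in N129, N136 and N138, against 207, 245 and 209 CPM in C7, C8 and C9, so each silicosis library was far below each control library. The means were 108 ± 10.9 CPM in silicosis and 221 ± 21.4 CPM in control (SD, n = 3 each). The log2 fold change was -1.03 (SE 0.11, edgeR adjusted p = 0.000264), which leaves 0.488 of the control level, with a 95% interval of 0.411 to 0.580. In RNA from whole lung, fewer cells of a type and less RNA per cell cannot be told apart.

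Flt4, the VEGF-C and VEGF-D receptor VEGFR-3, which lung blood capillaries express as well, fell too. It had 65.5, 76.4 and 63.3 CPM in N129, N136 and N138, against 98.0, 104 and 117 CPM in C7, C8 and C9. All silicosis libraries were below all control libraries. Its log2 fold change was -0.63 (SE 0.11, edgeR adjusted p = 0.00257), which leaves 0.644 of the control level, with a 95% interval of 0.544 to 0.763.

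**Figure D1:**
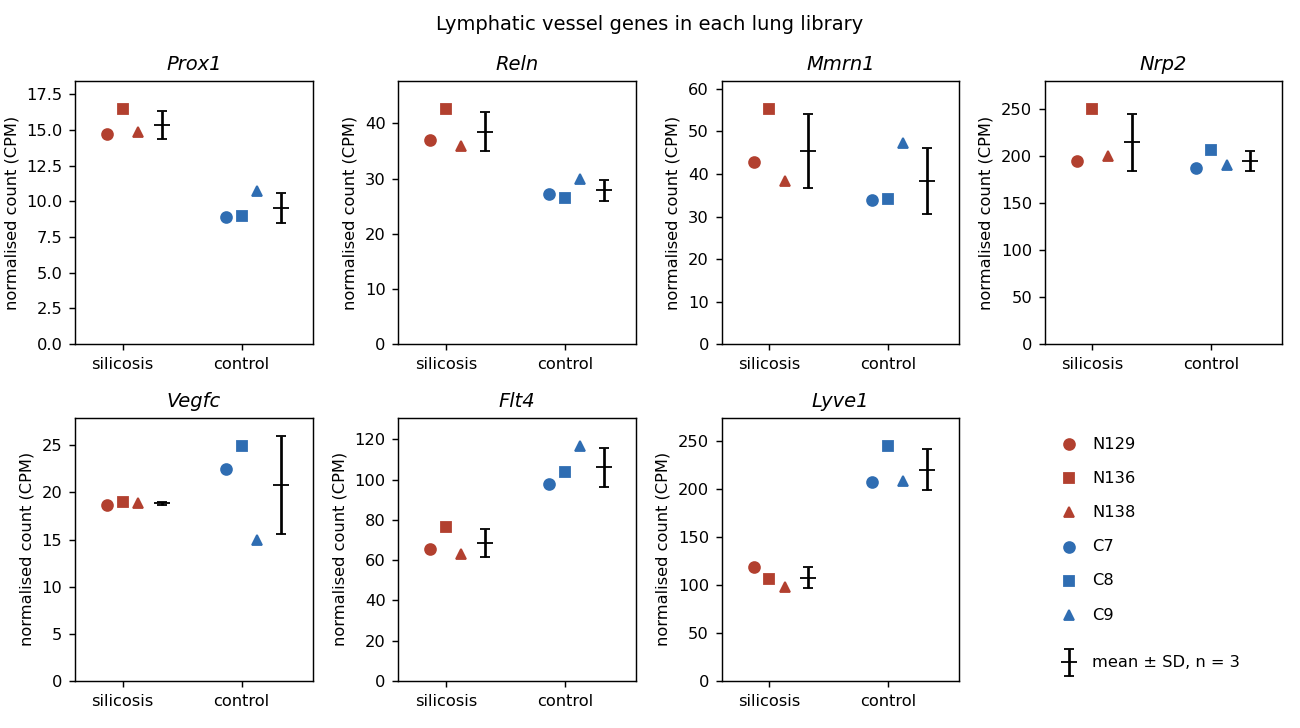
Normalised counts (CPM, vertical axis from 0) of the 7 genes in the 3 silicosis and 3 control libraries, with 1 marker per library and bars for mean ± SD. Prox1 and Reln were higher and Flt4 and Lyve1 lower in all silicosis libraries, whereas the groups overlapped for Mmrn1, Nrp2 and Vegfc.

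Mmrn1, Nrp2 and Vegfc did not pass, and their groups overlapped. Mmrn1, which encodes multimerin 1, an adhesive protein of platelets and endothelium that marks lymphatic endothelium, had 42.8, 55.2 and 38.4 CPM in N129, N136 and N138, against 33.8, 34.1 and 47.3 CPM in C7, C8 and C9. Control library C9 stood above 2 of the silicosis libraries. The log2 fold change was 0.24 (SE 0.17, edgeR adjusted p = 0.309), and the 95% interval of the fold, 0.905 to 1.55, includes a rise as large as that of Reln. Without C9 the value was 0.42 (adjusted p = 0.0956) and without N136 it was 0.07.

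Nrp2, the neuropilin-2 co-receptor, which also binds class 3 semaphorins and is made by many lung cell types, had 195, 249.6 and 199.9 CPM in N129, N136 and N138, against 188, 207 and 189.9 CPM in C7, C8 and C9. Only N136 stood above all controls. Its log2 fold change was 0.14 (SE 0.11, edgeR adjusted p = 0.371), the 95% interval of the fold was 0.924 to 1.32, and without N136 the value was 0.01.

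Vegfc, the lymphatic growth factor itself, had nearly equal levels in silicosis, with 18.6, 19.0 and 18.9 CPM in N129, N136 and N138, against 22.5, 24.9 and 15.01 CPM in C7, C8 and C9. The control libraries lay on both sides of the silicosis libraries. The log2 fold change was -0.14 (SE 0.18, edgeR adjusted p = 0.572), with a 95% interval of the fold of 0.687 to 1.19. Its sign turned without C8 (0.0046), and without C9 the value was -0.33 (adjusted p = 0.0716). The authors' deposited table gave log2 fold changes of 0.68 for Prox1, 0.46 for Reln, -0.64 for Flt4, -1.04 for Lyve1, 0.24 for Mmrn1, 0.13 for Nrp2 and -0.15 for Vegfc, on the same 6 libraries. By its adjusted p, 4 of the 7 passed, the same genes as here, and 32.1% of the mRNAs in that table passed.

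Levels can be set against each other only per transcript length, here as mean CPM per kilobase of the longest coding transcript. The order was the same in both groups. It ran from Lyve1 (37.2 in silicosis, 76.2 in control) and Nrp2 (31.9 and 29.0) through Flt4 (10.9 and 17.0), Mmrn1 (10.2 and 8.58), Vegfc (7.70 and 8.50) and Reln (3.29 and 2.38) to Prox1 (1.94 and 1.21). In silicosis the libraries' ranges overlapped between Lyve1 and Nrp2, at 33.8 to 41.2 and 29.0 to 37.1 CPM per kilobase, and between Flt4 and Mmrn1. In control lungs Lyve1 stood apart from Nrp2, at 71.7 to 84.8 against 27.9 to 30.7 CPM per kilobase, and only Mmrn1 and Vegfc overlapped among neighbours in the order.

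The opposite moves were also read as ratios within a library, which do not depend on how libraries are scaled. The log2 ratio of Flt4 to Prox1 was 2.16, 2.22 and 2.09 in N129, N136 and N138, against 3.47, 3.53 and 3.44 in C7, C8 and C9. The ratio fell to 0.400 of its control value and varied little within either group. The log2 ratio of Lyve1 to Prox1 was 3.02, 2.69 and 2.72 in silicosis, against 4.55, 4.77 and 4.28 in control, a fall to 0.303. The ratio of Reln to Prox1 moved least of the 6, to 0.856 of its control value. Each of the 6 ratios to Prox1 had no overlap between groups. The exact two-sided permutation test gave p = 0.1 for each, the smallest that 3 against 3 libraries allow, and 0.1 after Benjamini-Hochberg adjustment over the 6. These ratios were chosen after the values were seen, and they share Prox1. Prox1 was itself higher in silicosis, so a gene of unchanged CPM would fall against it. On their own CPM, the groups overlapped for Mmrn1, Nrp2 and Vegfc.

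The 7 genes were also set against 15 genes of blood vessel endothelium, several of which lymphatic endothelium expresses too. Of these 15, 12 were lower, 0 higher and 3 did not pass, with a median log2 fold change of -0.71. So 80% passed, against 31.8% of all tested mRNAs. The geometric mean of the 15 was 154, 157 and 152 CPM in N129, N136 and N138, against 265, 254 and 256 CPM in C7, C8 and C9. Relative to it, Flt4 did not stand apart. Its log2 ratio was -1.23, -1.04 and -1.27 in silicosis and -1.44, -1.29 and -1.13 in control, with overlapping groups and a difference of 0.11 (exact permutation p = 0.4). Against Cdh5, the endothelial cadherin, alone, the difference for Flt4 was 0.67. Cdh5 had the steepest fall of the 15 genes, with a log2 fold change of -1.31.

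Prox1 rose against the same vessel genes by 1.43 on the log2 scale, with ratios of -3.39, -3.26 and -3.36 in silicosis and -4.90, -4.82 and -4.57 in control. Reln rose by 1.21, Mmrn1 by 0.99, Nrp2 by 0.87 and Vegfc by 0.63 against them. In each of these cases no silicosis library overlapped a control library. The geometric mean of the 15 genes was itself lower in silicosis, so a gene of unchanged CPM would rise against it. On their own CPM, Mmrn1, Nrp2 and Vegfc did not pass and their groups overlapped. Lyve1 was lower by 0.29 against the 15 genes, at -0.37, -0.57 and -0.64 in silicosis and -0.35, -0.05 and -0.29 in control, with a small gap between the groups. The direction for Lyve1 turned with Cdh5 alone as the reference, to 0.27, but Cdh5 had the steepest fall of the 15 genes. The exact two-sided permutation p was 0.1 for each gene other than Flt4, the smallest possible, and 0.117 after Benjamini-Hochberg adjustment over the 7 genes, so none passed.

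**Figure D2:**
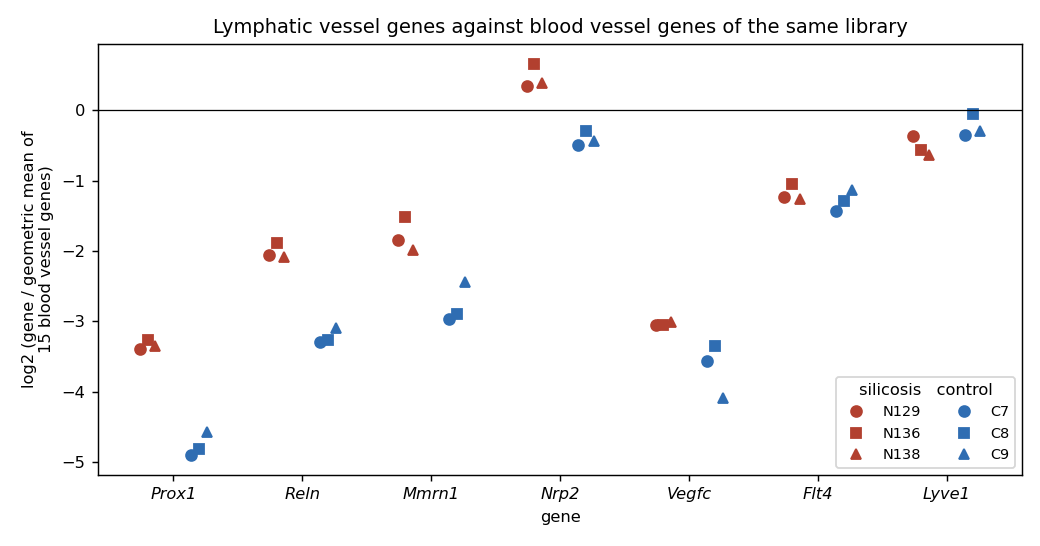
Log2 ratio of each gene's CPM to the geometric mean CPM of 15 blood vessel endothelial genes in the same library (vertical axis), with 1 marker per library. Silicosis libraries lay above control libraries for Prox1, Reln, Mmrn1, Nrp2 and Vegfc, overlapped them for Flt4 and lay below them for Lyve1. The geometric mean was itself lower in silicosis, so a gene of unchanged CPM would lie higher there.

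Most other genes of lymphatic endothelium did not pass. Of 16 listed and tested, 1 was higher, 5 were lower and 10 did not pass, with a median log2 fold change of 0.11, against 0.02 over all tested mRNAs. By direction alone, 10 of the 16 log2 fold changes were above 0 and 6 below. The share that passed was 37.5%, near the 31.8% of all tested mRNAs. The number higher was 3 without C8 and 2 without N138. The 5 that fell include transcription factors of early lymphatic development. Gata2 had a log2 fold change of -1.34 (SE 0.12, edgeR adjusted p = 0.000142). Nr2f2, which works with SOX18 upstream of PROX1, had 103, 101 and 122 CPM in N129, N136 and N138, against 212, 233 and 222 CPM in C7, C8 and C9 (log2 fold change -1.03, SE 0.10). Sox18 fell by 0.79 (SE 0.09). Both regulators are made by blood vessels too, and they were lower in the libraries in which Prox1 was higher.

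The other genes of the list that fell were Ackr2, a chemokine-scavenging receptor of lymphatic endothelium, by 0.75 (SE 0.11), and the polarity gene Pard6g, by 0.59 (SE 0.11). Nts, which encodes neurotensin, was the gene that rose, and it is named after the fact. It was scarce, with 2.19, 0.803 and 2.20 CPM in silicosis and 0.149, 0.431 and 0.104 CPM in control (log2 fold change 2.89, SE 0.61, edgeR adjusted p = 0.00700). Pdpn, podoplanin, which alveolar type 1 cells also carry, had 138.2, 190.4 and 139.9 CPM in N129, N136 and N138, against 132, 128.5 and 131 CPM in C7, C8 and C9, and did not pass (edgeR adjusted p = 0.156). Foxc2, a valve transcription factor, had 2.56, 2.13 and 2.11 CPM in silicosis and 1.19, 1.53 and 0.652 CPM in control (edgeR adjusted p = 0.0557). Ccl21a, the lymphatic chemokine that guides dendritic cells, had 93.9, 67.4 and 40.5 CPM in silicosis and 55.5, 57.9 and 60.1 CPM in control. It shares 71.5% of its sequence windows with near copies, so its counts are uncertain.

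The signals that reach Flt4 differed from each other. Vegfd, the other ligand of VEGFR-3, had 17.8, 14.7 and 18.5 CPM in N129, N136 and N138, against 52.5, 46.6 and 50.4 CPM in C7, C8 and C9 (log2 fold change -1.55, SE 0.12, edgeR adjusted p = 6.16e-05). Per kilobase of transcript, Vegfd and Vegfc overlapped in silicosis, at 7.18 to 9.02 and 7.61 to 7.75 CPM per kilobase. In control lungs they were apart, at 22.7 to 25.6 for Vegfd and 6.13 to 10.2 for Vegfc. The log2 ratio of Vegfc to Vegfd was 0.07, 0.37 and 0.03 in N129, N136 and N138, against -1.22, -0.90 and -1.75 in C7, C8 and C9. The groups of this ratio did not overlap (exact two-sided permutation p = 0.1, the smallest possible, and 0.2 after Benjamini-Hochberg adjustment over the 2 ratios of this kind, both chosen after the values were seen).

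The VEGF family list held 11 tested ligands, receptors and processing factors other than Vegfc, Flt4 and Nrp2. Of these 11, 1 was higher, 7 were lower and 3 did not pass, with a median log2 fold change of -0.62. So 72.7% passed, against 31.8% of all tested mRNAs. Kdr, the VEGF-A receptor VEGFR-2, had 370, 382 and 394 CPM in silicosis and 749, 666 and 721 CPM in control (log2 fold change -0.90, SE 0.09). The ratio of Flt4 to Kdr was -2.50, -2.32 and -2.64 on the log2 scale in silicosis and -2.93, -2.68 and -2.63 in control, with overlapping groups (exact permutation p = 0.2). Flt1, the decoy receptor VEGFR-1, fell by 0.91 (SE 0.09), and Vegfa, the main blood vessel growth factor, by 0.86 (SE 0.15). Svep1, a matrix protein needed for lymphatic remodelling, fell by 0.73 (SE 0.08). The genes that activate the VEGF-C precursor did not pass. These were Ccbe1 (log2 fold change -0.36, edgeR adjusted p = 0.0690), Adamts3 (-0.26, adjusted p = 0.269) and Adamts14 (-0.38, adjusted p = 0.0723). Pgf, placental growth factor, also named after the fact, was the gene that rose, at 0.93 (SE 0.25, edgeR adjusted p = 0.0207), a call that ended without C7, C9 or N136 (0.0695, 0.0691 and 0.0676).

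**Figure D3:**
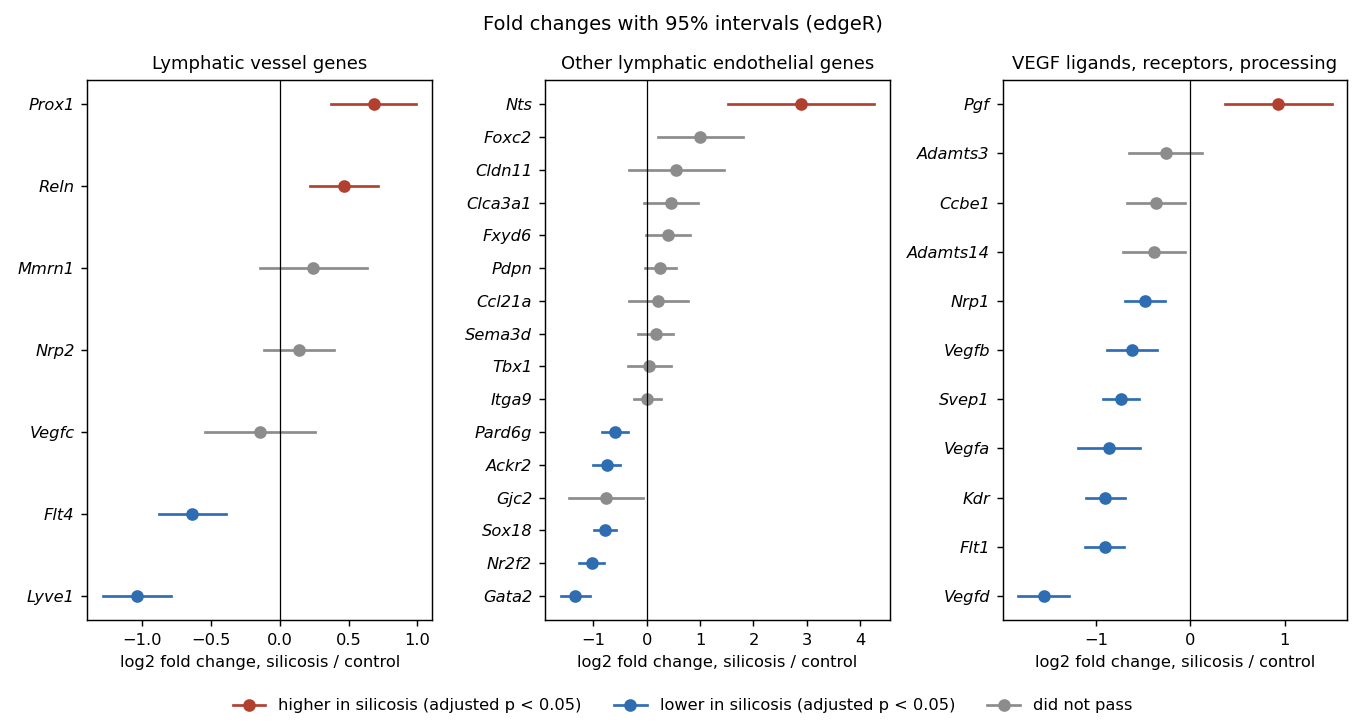
Log2 fold changes, silicosis over control (horizontal axis), with 95% intervals for the 7 lymphatic vessel genes, 16 other lymphatic endothelial genes and 11 VEGF family genes. Colours mark genes higher (red) or lower (blue) at an edgeR adjusted p under 0.05. Gata2, Nr2f2 and Sox18 lay below 0 while Prox1 lay above it, and in the VEGF panel 10 of 11 values were below 0.

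Partners of the other members were read from lists as well. Reelin acts through the receptors VLDLR and ApoER2, encoded by Lrp8. Lrp8 was higher, with 12.1, 14.9 and 9.99 CPM in N129, N136 and N138, against 3.85, 3.73 and 5.19 CPM in C7, C8 and C9 (log2 fold change 1.53, SE 0.21, edgeR adjusted p = 0.000836). Vldlr was lower, with 63.3, 61.7 and 75.4 CPM in silicosis and 101, 105 and 95.5 CPM in control (log2 fold change -0.59, SE 0.10). Dab1, the adaptor of both receptors, was scarce, at 0.640 to 1.62 CPM in silicosis and 0.598 to 1.81 CPM in control, and did not pass (edgeR adjusted p = 0.956). The other 2 of the 5 listed genes, Crk and Crkl, did not pass either.

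Of 10 tested semaphorins and plexins listed as partners of neuropilin-2, 4 were lower, 0 higher and 6 did not pass. Their median log2 fold change was -0.22, and 40% passed, against 31.8% of all tested mRNAs. Without C8 the number lower was 2. Sema3f, the neuropilin-2 ligand that restrains lymphatic growth, had 125, 131 and 124 CPM in silicosis and 201, 196 and 168 CPM in control (log2 fold change -0.57, SE 0.10, edgeR adjusted p = 0.00239). Sema3b fell by 0.51 (SE 0.09). Sema3g had a log2 fold change of -0.54 and Plxna2 of -0.36. The call of Sema3g ended without C7 or C8 and that of Plxna2 without C8 (edgeR adjusted p = 0.0608, 0.0537 and 0.0819).

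Genes of hyaluronan, the ligand of LYVE-1, went both ways. Of 12 tested, 4 were higher, 3 lower and 5 did not pass, with a median log2 fold change of 0.55. So 58.3% passed, against 31.8% of all tested mRNAs. Cd44, the hyaluronan receptor of leukocytes and many other cells, had 570, 692 and 616 CPM in N129, N136 and N138, against 269, 293 and 288 CPM in C7, C8 and C9 (log2 fold change 1.14, SE 0.10), opposite to Lyve1. The hyaluronan synthases Has2 and Has3 rose by 2.68 (SE 0.32) and 0.80 (SE 0.13), and the hyaluronidase Hyal2 fell by 0.63 (SE 0.12). Cemip, which is needed for another route of hyaluronan breakdown, was higher, with 4.51, 4.54 and 6.15 CPM in N129, N136 and N138, against 1.84, 0.862 and 2.06 CPM in C7, C8 and C9 (log2 fold change 1.67, SE 0.33, edgeR adjusted p = 0.00539). Cemip2, of the same list, was more abundant and lower, with 271, 279 and 303 CPM in N129, N136 and N138, against 452, 427 and 314 CPM in C7, C8 and C9. Its log2 fold change was -0.48 (SE 0.14, edgeR adjusted p = 0.0255). Hyal1 had a log2 fold change of -0.91 but shares 63.1% of its windows with other genes.

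Several of the 7 genes are made by other cells of the lung, so markers of those cells were read in the same libraries. Of 9 markers of LYVE-1-positive macrophages, 1 was higher, 4 were lower and 4 did not pass (55.6% called, against 31.8% of all tested mRNAs). The number lower was 2 without C7, C9 or N129 and 1 without C8, and the number higher was 0 without C7, C8, N129 or N138 and 2 without C9. The summed level was 1224 to 2019.6 CPM in silicosis and 2186 to 2489 CPM in control, of which Cbr2, which epithelial cells express too, made up 859 to 1568 CPM and 1715 to 1969 CPM. Mrc1, the macrophage mannose receptor, had 94.6, 113 and 119 CPM in silicosis and 110.4, 132 and 113 CPM in control and did not pass. Folr2 was below 1 CPM in every library, but it shares 56.3% of its windows with another gene, so its counts are uncertain. The steepest fall in the list was that of Cd163, a scavenger receptor of tissue macrophages, with 5.24, 3.49 and 7.71 CPM in N129, N136 and N138, against 8.99, 11.2 and 12.7 CPM in C7, C8 and C9. Its log2 fold change was -1.01 (SE 0.27, edgeR adjusted p = 0.0216), a call that ended without C8, C9 or N129 (0.0617, 0.0747 and 0.0651). The gene that rose was F13a1, which encodes a subunit of coagulation factor XIII, at 0.81 (SE 0.27, edgeR adjusted p = 0.0476), a call that ended without C7, C8, N129 or N138. Gas6 fell by 0.59 (SE 0.11) and Maf by 0.39 (SE 0.10), and the call of Maf ended without C7 or C8 (edgeR adjusted p = 0.0575 and 0.0626). The part of macrophages in the fall of Lyve1 was not tested.

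Markers of platelets, which carry multimerin 1, had log2 fold changes below 0 in all 9 tested of 10 listed. Of these 9, 4 were lower, 0 higher and 5 did not pass, so 44.4% passed, against 31.8% of all tested mRNAs. The list summed to 33.03 to 42.8 CPM in silicosis and 44.2 to 108 CPM in control. The number lower was 1 without C9 or N136 and 2 without N129. The sum was highest in C9, the control library in which Mmrn1 was highest and Vegfc lowest. Among the silicosis libraries the sum was lowest in N136, at 33.03 CPM, where Mmrn1 was highest, at 55.2 CPM. Markers of heart muscle, which expresses Prox1, summed to 133 to 232 CPM in silicosis and 163 to 421 CPM in control. They were also highest in C9, the control library with the most Prox1. Among the silicosis libraries they were lowest in N136, at 133 CPM, where Prox1 was highest, at 16.4 CPM. Of 11, 2 were higher and 9 did not pass (18.2% called, against 31.8% of all tested mRNAs). Without C7, C8, N129 or N138, 1 was higher. Without C9 the log2 fold change of Prox1 was 0.78. The part of platelets, heart muscle and neuroendocrine cells in the values of Mmrn1 and Prox1 was not tested. Markers of neuroendocrine cells, another Prox1-expressing type, summed to 4.81 to 5.84 CPM in silicosis and 6.03 to 7.20 CPM in control. Of these sums, Syp made up 2.53 to 3.05 CPM and 3.80 to 4.67 CPM. Of the 6 tested, 3 had log2 fold changes above 0 and 3 below, with a median of 0.04, and 0 passed with edgeR. At an unadjusted p under 0.05 there was 1 of the 6, Syp, named after its values were seen (edgeR adjusted p = 0.0605). Syp shares 32.6% of its windows with another gene. With DESeq2 1 of the 6 passed and with limma-voom 0. Schwann cell markers summed to 105 to 119.7 CPM in silicosis and 92.2 to 95.6 CPM in control, most of it Mbp. Of the 5, 2 were higher and 3 did not pass (40% called, against 31.8% of all tested mRNAs). The number higher was 1 without C7 or C9 and 0 without C8 or N136.

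Lymph node and follicle markers were highest in silicosis library N129. The 10 lymph node and follicle markers summed to 413, 256 and 151 CPM in N129, N136 and N138, against 142, 121 and 183 CPM in C7, C8 and C9. Of 9 tested, 5 were higher, 1 was lower and 3 did not pass, so 66.7% passed, against 31.8% of all tested mRNAs. The number higher was 2 without C9, N129 or N136, 1 without C7 and 0 without C8, and the number lower was 0 without C7. The gene of this list that was lower was Chst4 (log2 fold change -1.03, SE 0.25, edgeR adjusted p = 0.0139). Its levels were 1.70, 1.54 and 1.53 CPM in N129, N136 and N138, against 3.75, 3.33 and 2.64 CPM in C7, C8 and C9. Glycam1, a marker of lymph node venules, had 1521, 47 and 40 counts in N129, N136 and N138 and 0 in each control library. Ccl21a was highest in N129 as well. Without N129 the log2 fold changes were 0.71 for Prox1, 0.49 for Reln, -1.12 for Lyve1 and -0.60 for Flt4, each past the threshold, with N136 at 256 CPM of these markers still among the libraries. The part of lymph node tissue in the values of the 7 genes was not tested.

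**Figure D4:**
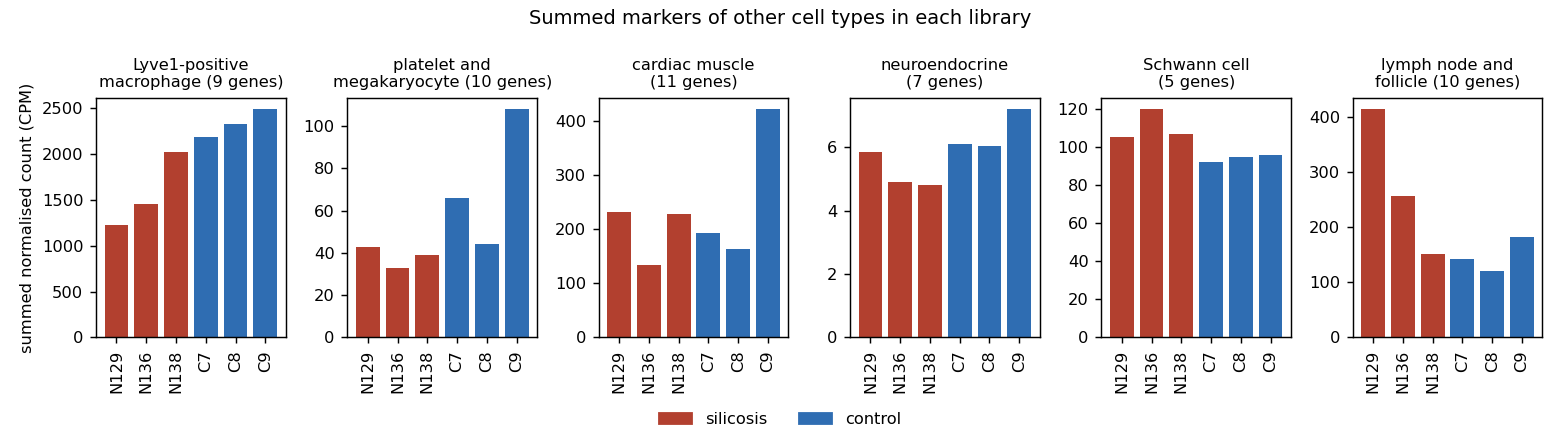
Summed normalised counts (CPM, vertical axis from 0) of marker lists of 6 other cell types in each silicosis (red) and control (blue) library. Lymph node and follicle markers were highest in N129, at 413 CPM, and platelet and heart muscle markers in C9, at 108 and 421 CPM.

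Within the lung transcriptome, the pattern of each gene over the 6 libraries was compared with those of 14183 other mRNAs by the Euclidean distance between log2 CPM values centred on their own means. Nearest to Prox1 were Irak2, Pik3ap1 and Btk, at 0.12, 0.14 and 0.15. Reln had rank 76 in distance from Prox1, at 0.30, the closest of the other 6 genes. Nearest to Reln were Spryd7, Lrig1 and Stxbp2, at 0.09, 0.10 and 0.11. Lyve1 was most like Lipg, which encodes endothelial lipase, followed by Ifitm2 and Zfp703, at 0.13, 0.15 and 0.15, and its nearest of the 7 was Flt4, at 0.63 and rank 878. Flt4 was most like Pcdhgc3, Hnrnpul1 and Tsc22d4, at 0.12, 0.12 and 0.13. Nearest to Nrp2 were Furin, which encodes a protease that cleaves VEGF-C precursors, Igf2r and B4galt1, at 0.05, 0.07 and 0.07. With 6 libraries in 2 groups, many genes share such a step, and the distances are descriptions.

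The 7 genes lie on 6 chromosomes, with Prox1 and Nrp2 both on chromosome 1 but far apart, and their sequences are largely their own. Between 0 and 1.33% of the 50-base windows of the 7 transcripts were found in transcripts of other genes. For Prox1 and Reln, these windows lie in Prox1os and Gm10475, genes on the opposite strand. No source used here gives the strand setting of the counting, so reads of such pairs cannot be told apart. Of the non-coding RNAs that overlap these genes, Gm28172, opposite Prox1, had 7, 0 and 12 counts in N129, N136 and N138, against 7, 0 and 2 in C7, C8 and C9. Opposite Reln, Gm10475 had 7, 1 and 8 counts in silicosis and 0, 2 and 0 in control, and Gm16110 had 15, 2 and 3 counts in silicosis and 4, 5 and 4 in control. These counts are small beside the 534 to 1856 counts of Prox1 and Reln in silicosis, but no count of Prox1os was among those read. The part of opposite-strand reads in the values of Prox1 and Reln was not tested. Gm29083, opposite Nrp2, had 38, 21 and 7 counts in silicosis and 5, 16 and 13 in control, and did not pass among the lncRNAs, of which 5.78% passed (log2 fold change 0.89, SE 0.63, edgeR adjusted p = 0.494).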

How the data were processed

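Gene-level read counts were deposited by the authors as whole numbers for mRNAs and lncRNAs in 6 libraries. The submitters' processing notes name Trimmomatic 0.39, HISAT2, Bowtie2, featureCounts 2.0.0, DESeq2 1.36.0 and GRCm39, with no role or order. No source used here gives the counting's annotation or strand setting. The authors' deposited log2 fold changes and adjusted p-values were read only for comparison.

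Counts were filtered with filterByExpr, scaled by TMM and tested in edgeR 4.0.16 (R 4.3.3, limma 3.58.1) over all 15808 mRNAs kept, with Benjamini-Hochberg adjustment. The SE is the size of the log2 fold change divided by the square root of F. The tests were run on simulated data first. Total mRNA counts were 33698920 to 43735169 in silicosis and 39702310 to 44000748 in control libraries. No pair of libraries in a group agreed within sampling noise (chi-square per degree of freedom 15.5 to 82.0).

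The members and lists were chosen with earlier results of these data known. Named were all 7 members, up to 5 genes passing per list, the first markers of each list and the 3 genes most like each member. Foxc2, Adamts3, Adamts14, Ccbe1, Cd163, F13a1, Cemip, Cemip2, Crk, Crkl, Mbp, Nts, Pgf and Syp were named after their values were seen. Cemip2 was not among the genes followed over the refits. Tables of miRNAs and circRNAs were not used here. As alternatives, the fits were repeated with DESeq2 1.42.0 and its size factors, with limma-voom, with all genes kept and with each library left out.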

Additional observations from a re-analysis of the deposited data

How the results depend on the processing

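Over 70 refits of the 7 lymphatic vessel genes under another scaling, no filter, DESeq2, limma-voom or 1 library left out, 68 kept direction and side of the threshold. The call of Reln ended without C8, so the number of the 7 called higher ranged from 1 to 2 when 1 library was left out. The log2 fold change of Vegfc ranged from -0.33 without C9 to 0.0046 without C8, where its sign turned. The cause was not tested. Among 350 refits of 35 other genes that had passed, 326 kept their call, 24 lost it and 0 changed sign. Refits of 18 further genes named in the text, most of which had not passed, were added after seeing the data. Of 179 such refits, 148 kept direction and side of the threshold, 17 lost a call, 8 gained one (of Foxc2, Ccbe1, Syp, Ccl21a and Adamts14) and 6 changed sign. Those that changed sign were of Dab1 (0.01 with limma-voom, 0.48 without C7, 0.21 without N138), Crkl (0.02 without C7, 0.00096 without N138) and Ccl21a (-0.10 without N129). Against Cdh5 alone, the vessel gene with the steepest fall, in place of 15 vessel genes, the difference for Lyve1 was 0.27 in place of -0.29. No paired analysis was possible because the groups share no replicate numbers. With 3 libraries a group, an exact permutation test cannot go below 0.1. The 95% intervals of the fold, which reached 1.55 for Mmrn1, 1.32 for Nrp2 and down to 0.687 for Vegfc, do not exclude changes of up to those sizes.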
